A study of Homo sapiens with 6 samples.

Results

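A set of 10 genes that direct or mark the choice between the granulosa and the Sertoli fate was followed in KGN cells, a human granulosa cell line, after knock-down (KD) of FOXL2. They were SOX9, DMRT1, AMH, WT1, GATA4, NR0B1, ESR1, ESR2, RSPO1 and WNT4. Each was found by its symbol, and together they were 10 of the 60671 genes in each deposited table. Of these 10 genes, 2 were expressed (a mean of at least 1 TPM, a library-scaled level per transcript length, over the 6 libraries), namely AMH and SOX9. ESR1 and ESR2 were low (a mean TPM of at least 0.1 and under 1), and WNT4, DMRT1 and GATA4 were at trace level (under 0.1). WT1, NR0B1 and RSPO1 were not detected, with 0 counts in all 6 libraries. Of the 3 genes with enough counts to be tested (SOX9, AMH and ESR1), none passed the test for a difference between cells with and without FOXL2 siRNA. Of all 15663 genes tested, 40 passed (0.255%), so a count of 0 among 3 says little by itself.

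All cells were KGN cells edited by CRISPR to carry 2 wild-type copies of FOXL2 (labelled FOXL2 WT/WT), and both groups shared this genotype. The FOXL2 siRNA group received 30 pmol of a pool of 3 siRNAs against FOXL2, and the control siRNA group the same amount of a scrambled siRNA. RNA was taken 30 h after transfection. There were 3 libraries per group. Of the 4 siRNAs used, 1 was in every pool, and each pool lacked a different one, so the 3 FOXL2 siRNA libraries differed in their siRNA mixture. The sources used here do not say whether the edited cells were a single clone or whether the libraries came from separate cultures. The spread between libraries may thus be technical, and between the FOXL2 siRNA libraries the siRNA mixture differed as well. Total expected counts lay between 23843192 and 28791954 per library. FOXL2 siRNA replicate 2 stood apart on the first principal component of log2 CPM, which held 29.6% of the variance, at 47.3, where the other libraries lay between -19.5 and -3.22. Values are therefore given for each library, always in the order of the replicate numbers, and the comparisons were repeated without each library.

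In the embryo, supporting cells of the gonad become Sertoli cells in a testis or granulosa cells in an ovary. SOX9, a transcription factor with an HMG box, drives the Sertoli fate, DMRT1 keeps it in the adult testis, and Sertoli cells secrete AMH (anti-Müllerian hormone), which removes the Müllerian ducts. WT1 and GATA4 are transcription factors that act early in the gonads of both sexes, and NR0B1 (DAX1) is a nuclear receptor that opposes NR5A1. On the ovarian side, RSPO1 and WNT4 are secreted proteins that raise β-catenin signalling, FOXL2 maintains the granulosa fate after birth, and ESR1 and ESR2 are the oestrogen receptors. Granulosa cells of growing follicles also secrete AMH. Loss of Foxl2 in the adult mouse ovary is known for turning granulosa cells towards Sertoli-like cells that express Sox9, and this is the background of the comparison made here.

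FOXL2 itself was counted first, since it checks the labels. FOXL2 had 248, 238 and 290 counts under control siRNA and 72, 80 and 68 under FOXL2 siRNA. In TPM these were 5.36, 5.28 and 5.72 against 1.41, 1.90 and 1.27. Every FOXL2 siRNA library was below every control library. Counts scaled by TMM and library size (CPM) fell from 10.1 ± 0.596 (SD, n = 3) to 2.77 ± 0.487 (SD, n = 3), that is to 27.3% of the control mean. The log2 fold change was -1.88 (SE 0.142, Benjamini-Hochberg adjusted p = 0.00267, edgeR's quasi-likelihood test). In bulk RNA, fewer cells with a transcript and less of it per cell cannot be told apart.

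The plot of TPM by library gives the levels of all members. A level in TPM is per transcript length and can be compared between genes within these tables. Fold changes are of counts, so TPM means and fold changes of a gene can differ in direction where its estimated length moved.

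**Figure D1:**
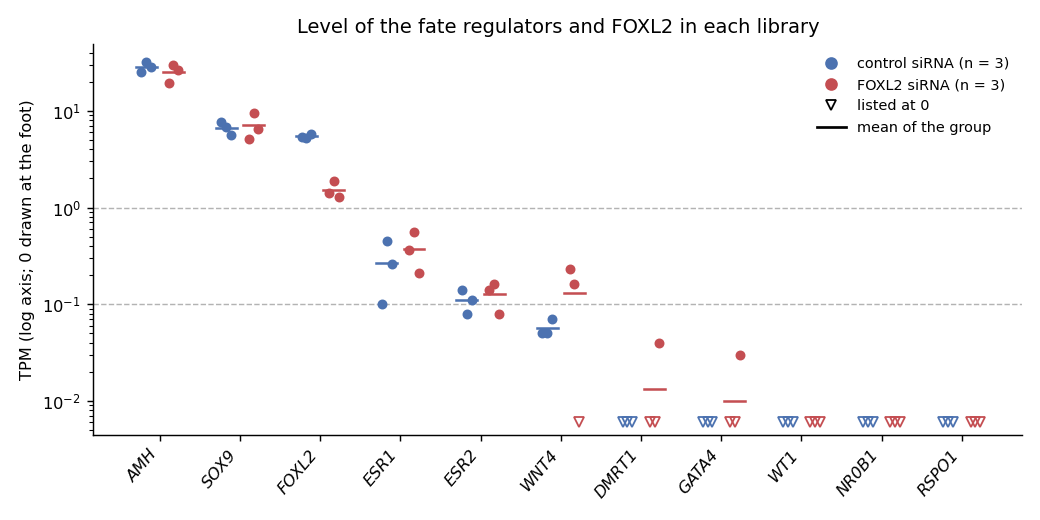
TPM of each fate regulator and of FOXL2 in each library on a log axis, in order of the mean over 6 libraries; filled points are libraries, bars are group means (n = 3), open triangles at the foot are libraries listed at 0, and dashed lines mark 0.1 and 1 TPM. AMH (19.2 to 31.9 TPM) and SOX9 (5.09 to 9.55 TPM) stand above 1 TPM in all 6 libraries, and WT1, NR0B1 and RSPO1 are at 0 in all of them.

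The testis factors are described first. SOX9 (ENSG00000125398) lies on chromosome 17 at 72121020-72126420 on the plus strand of GRCh38 as GENCODE v29 annotates it. SOX9 had 484, 423 and 393 counts under control siRNA and 357, 551 and 476 under FOXL2 siRNA. SOX9 TPM was 7.62, 6.85 and 5.66 against 5.09, 9.55 and 6.50. The lowest and the highest of the 6 values were both FOXL2 siRNA libraries, and the control values lay between them. Its mean was 6.71 ± 0.987 TPM (SD, n = 3) in the control group and 7.05 ± 2.28 TPM (SD, n = 3) in the FOXL2 siRNA group. The log2 fold change of SOX9 was 0.03 (SE 0.188, 95% interval -0.40 to 0.45, adjusted p = 0.970 in edgeR's quasi-likelihood test), so the interval covered ratios from 0.759 to 1.37. The value moved with 1 library. Without FOXL2 siRNA replicate 2, the library that stood apart, the log2 fold change was -0.21 (adjusted p = 0.482, edgeR), and without FOXL2 siRNA replicate 1 it was 0.20 (adjusted p = 0.669, edgeR).

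The file gave SOX9 1 transcript, and its length of 3931 nucleotides was the same in all 6 libraries, so its TPM and its count could not diverge through length. SOX9-AS1, a noncoding gene on the opposite strand, spans the whole of SOX9 in GENCODE v29. SOX9-AS1 was at 0.70, 0.17 and 0.73 TPM under control siRNA and 0.42, 0.13 and 0.12 TPM under FOXL2 siRNA, each below the SOX9 value of the same library. The libraries were stranded, but the strand setting of the counting is not given in the sources used here.

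AMH (ENSG00000104899) was the most abundant member. It lies on chromosome 19 at 2249309-2252073 on the plus strand (GRCh38, GENCODE v29). AMH had 615, 699 and 701 counts under control siRNA and 527, 616 and 719 under FOXL2 siRNA. AMH TPM was 25.1, 31.9 and 28.3 against 19.2, 29.8 and 26.6. The groups overlapped, and the lowest library was FOXL2 siRNA replicate 1. Mean TPM was 28.4 ± 3.45 (SD, n = 3) in the control group and 25.2 ± 5.43 (SD, n = 3) in the FOXL2 siRNA group. The log2 fold change of AMH was -0.19 (SE 0.116, 95% interval -0.45 to 0.08, adjusted p = 0.519 in edgeR's quasi-likelihood test), an interval of ratios from 0.734 to 1.05. Without FOXL2 siRNA replicate 1 it was -0.07 (adjusted p = 0.816, edgeR).

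The gene next to AMH was also measured. SF3A2, which encodes a splicing factor subunit, ends 629 bases before AMH on the same strand and was at 83.4, 89.0 and 93.1 TPM under control siRNA and 85.6, 84.0 and 89.4 TPM under FOXL2 siRNA. Its log2 fold change was -0.06 (SE 0.0774, adjusted p = 0.784, edgeR). JSRP1, on the opposite strand 178 bases past the end of AMH, was at 4.47 to 7.74 TPM. RSEM's length for AMH, an average over its 3 transcripts weighted by their estimated share, was 1626, 1505 and 1509 nucleotides under control siRNA and 1637, 1517 and 1554 under FOXL2 siRNA. In GENCODE v29 the protein-coding transcript of AMH has 1821 nucleotides, a transcript with a retained intron 1686 and a processed transcript 534. All 6 lengths were below the coding and the retained-intron length of that release. How much of the AMH count came from the noncoding transcripts was not tested.

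The window from 250 bases before to 50 bases after the start of AMH is shown because AMH was the most abundant member (RefSeq, GRCh38.p14, chr19:2249073-2249372, plus strand, 5′ to 3′). Capitals mark the letters AGATAA or AGATAG and also TGATAA or TGATAG, which GATA factors bind, and CAAGGTC, the core that NR5A1 binds, on either strand. The letters were chosen after this window had been read.
AMH: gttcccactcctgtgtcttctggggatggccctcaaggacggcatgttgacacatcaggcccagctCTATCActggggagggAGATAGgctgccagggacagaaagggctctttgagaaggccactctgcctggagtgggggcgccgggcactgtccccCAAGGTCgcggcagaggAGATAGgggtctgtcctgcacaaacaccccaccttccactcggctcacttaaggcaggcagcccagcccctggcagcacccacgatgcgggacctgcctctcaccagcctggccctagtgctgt
It held 3 matches to the GATA letters, which do not overlap, and 1 match to the NR5A letters. The same letters were present in 25% and 3.36% of the 35116 windows of this length that were read, with the chromosome of GATA4 left out. It held no match to the forkhead letters GTAAACA (present in 3.42% of windows) or to the SOX letters ACAATG or ACAAAG (24.5%). A match is a description of the sequence only.

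DMRT1 and GATA4 were close to absent. DMRT1 (ENSG00000137090), a DM-domain transcription factor on chromosome 9 at 841690-969090 (plus strand, GRCh38, GENCODE v29), had 1 count, in FOXL2 siRNA replicate 3, and 0 in the other 5 libraries. GATA4 (ENSG00000136574) likewise had 1 count, in FOXL2 siRNA replicate 3. In that library the single count came to 0.04 TPM for DMRT1 and 0.03 TPM for GATA4. With a limit of 3 counts per library, a level of up to 0.121 TPM of DMRT1 and 0.122 TPM of GATA4 could have been missed in FOXL2 siRNA replicate 2, the least favourable of the libraries at 0. No fold change is given for them.

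WT1, NR0B1 and RSPO1 had 0 counts in each of the 6 libraries. WT1 (ENSG00000184937) is on chromosome 11 at 32387775-32435630 (minus strand), NR0B1 (ENSG00000169297) on chromosome X at 30304206-30309598 (minus strand) and RSPO1 (ENSG00000169218) on chromosome 1 at 37611350-37634923 (minus strand), all in GRCh38 as GENCODE v29 gives them. A count of 0 allowed up to 3 counts per library, which came to between 0.0915 and 0.116 TPM for WT1, between 0.157 and 0.201 TPM for NR0B1 and between 0.0660 and 0.0838 TPM for RSPO1, counting error only. WT1-AS, which starts within WT1 on the opposite strand and shares 113 bases with it, was also at 0 in every library. All of 10 genes that every cell uses were above 0 in every library, the lowest at 14.25 TPM. At this depth neither group could be said to express WT1, NR0B1 or RSPO1, and the groups could not be compared for them.

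The same windows of NR0B1 and RSPO1 are shown beside that of AMH because these genes were not detected and have 1 start each in the table (RefSeq, GRCh38.p14, chrX:30309341-30309640 and chr1:37634843-37635142, both on the minus strand, 5′ to 3′). Neither held any of the letters searched, so they have no capitals. Most windows read lack these letters, which were chosen on the AMH window, so this is no contrast with AMH.
NR0B1: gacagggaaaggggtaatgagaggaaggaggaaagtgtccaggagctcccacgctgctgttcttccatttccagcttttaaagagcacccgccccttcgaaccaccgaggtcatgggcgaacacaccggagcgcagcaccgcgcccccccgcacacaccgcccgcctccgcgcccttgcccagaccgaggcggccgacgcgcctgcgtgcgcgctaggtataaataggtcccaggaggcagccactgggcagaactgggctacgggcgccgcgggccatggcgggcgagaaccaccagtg
RSPO1: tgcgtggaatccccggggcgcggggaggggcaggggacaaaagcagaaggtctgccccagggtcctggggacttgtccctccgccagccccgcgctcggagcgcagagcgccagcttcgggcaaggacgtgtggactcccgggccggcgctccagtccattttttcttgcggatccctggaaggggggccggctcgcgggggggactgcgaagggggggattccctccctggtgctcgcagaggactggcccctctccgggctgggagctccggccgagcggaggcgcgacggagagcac
The GC content was 63.3% for AMH, 66.3% for NR0B1 and 72% for RSPO1, against a median of 58.7% over all windows read. None was found for SOX9, and windows on the chromosome of GATA4 were not read. The windows read were 21 for 8 of the 10 members. The forkhead letters were present in 1 of these windows, at an internal start of WT1 (chr11:32400351-32400650, minus strand), where the match began at base 43 counted from the start. That window of WT1, a gene not detected, also held 1 match to the GATA letters. The window of FOXL2, which was expressed, held no match to any of the letters. No match says only that these letters are not in this window.

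The oestrogen receptors were low. ESR1 (ENSG00000091831), which encodes oestrogen receptor alpha, is on chromosome 6 at 151656691-152129619 (plus strand). ESR1 had 9, 15 and 17 counts under control siRNA and 26, 28 and 16 under FOXL2 siRNA. FOXL2 siRNA replicates 1 and 2 lay above all control libraries and replicate 3 within them. On the TMM scale ESR1 was at 0.535 ± 0.153 CPM (SD, n = 3) and 0.888 ± 0.306 CPM (SD, n = 3). The log2 fold change was 0.70 (SE 0.364, 95% interval -0.13 to 1.52, adjusted p = 0.434 in edgeR's quasi-likelihood test). This interval covered ratios from 0.916 to 2.87, the widest of the 3 tested members. It stayed positive without each library in turn, between 0.47 and 0.96, and did not pass the threshold in any of these fits.

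The TPM of ESR1 also rests on its estimated length. RSEM's length for ESR1, which has 15 transcripts in the file, was 5543, 2179 and 3773 nucleotides under control siRNA and 4049, 3417 and 4128 under FOXL2 siRNA. ESR1 TPM was 0.10, 0.45 and 0.26 against 0.36, 0.56 and 0.21. Control replicates 1 and 2 thus differed by 0.35 TPM with 9 and 15 counts.

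ESR2 (ENSG00000140009), oestrogen receptor beta, is on chromosome 14 at 64084232-64338112 (minus strand). ESR2 had expected counts of 9.81, 6 and 8 under control siRNA and 9.83, 9 and 7.27 under FOXL2 siRNA. ESR2 TPM was 0.14, 0.08 and 0.11 against 0.14, 0.16 and 0.08. The groups overlapped, and ESR2 did not pass the filter on low counts. Fitted without that filter, its log2 fold change was 0.04 (SE 0.428, adjusted p = 0.987, edgeR). In GENCODE v29 the span of ESR2 shares 142202 bases with that of SYNE2, a gene of the opposite strand that was at 8.95 to 12.2 TPM, so reads from SYNE2 would be hard to tell from ESR2 without strand.

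WNT4 (ENSG00000162552), on chromosome 1 at 22117305-22143969 (minus strand), was the only ovarian ligand among the members with any count. WNT4 had 3, 3 and 5 counts under control siRNA and 5, 3 and 0 under FOXL2 siRNA, at or close to the limit of 3 counts. WNT4 TPM was 0.05, 0.05 and 0.07 against 0.23, 0.16 and 0. FOXL2 siRNA replicates 1 and 2 had a higher TPM than every control library, although their counts lay within the control range. RSEM's length for WNT4 was 3968 nucleotides in all 3 control libraries, against 1345, 1375 and 1710 under FOXL2 siRNA, the last in a library with 0 counts. On the TMM scale WNT4 was at 0.143 ± 0.0379 CPM (SD, n = 3) and 0.102 ± 0.0934 CPM (SD, n = 3), in the opposite order to the mean TPM of 0.0567 and 0.130. WNT4 did not pass the filter on low counts.

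**Figure D2:**
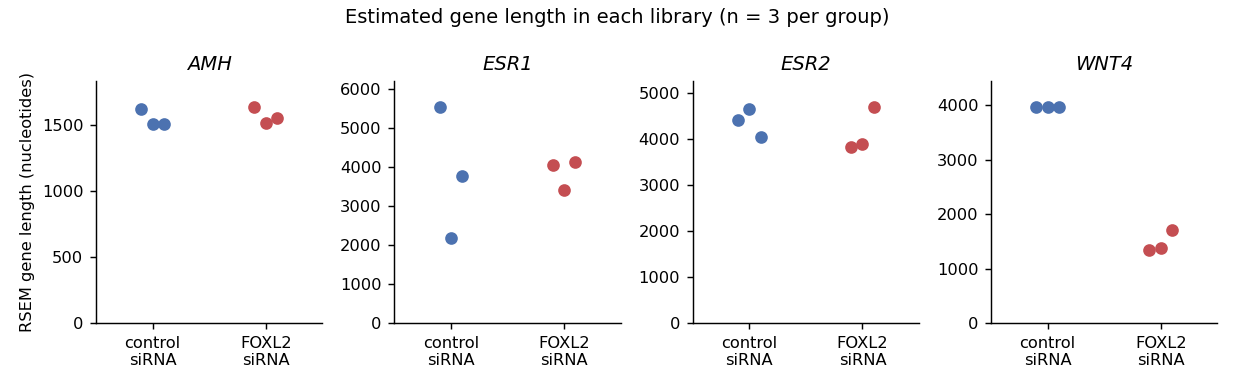
RSEM's estimated gene length in nucleotides for AMH, ESR1, ESR2 and WNT4, with 1 point per library (n = 3 per group). WNT4 is at 3968 in the control siRNA libraries and between 1345 and 1710 in the FOXL2 siRNA libraries, on counts of 0 to 5. The value of 1710 is from the library with 0 counts, so no WNT4 read underlies it. AMH lies between 1505 and 1637 in both groups.

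In order of mean TPM over the 6 libraries, the levels were 26.8 for AMH, 6.88 for SOX9, 0.323 for ESR1, 0.118 for ESR2, 0.0933 for WNT4, 0.00667 for DMRT1 and 0.005 for GATA4. The ranges of AMH and SOX9 over 6 libraries did not overlap, nor did those of SOX9 and ESR1. ESR1 and ESR2 overlapped, as did ESR2 and WNT4, WNT4 and DMRT1, and DMRT1 and GATA4, so the order within these pairs was not beyond the spread over all libraries. Within a group, ESR1 lay above ESR2 in the FOXL2 siRNA libraries (0.21 to 0.56 against 0.08 to 0.16 TPM), without overlap. In the control libraries, ESR2 was listed above WNT4 without overlap. WNT4 had 3 to 5 counts there, and its TPM rests on the estimated length of 3968 nucleotides, so that order is uncertain. In the same libraries WNT4 was listed above DMRT1, which had 0 counts. The limit of 3 counts for DMRT1 lay above the WNT4 TPM in each control library, so this order was not established. SOX9 and FOXL2 overlapped in the control libraries, at 5.66 to 7.62 TPM against 5.28 to 5.72 TPM. In the FOXL2 siRNA libraries they did not, at 5.09 to 9.55 TPM against 1.27 to 1.90 TPM.

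Over all genes, 40 of the 15663 tested passed an adjusted p of 0.05 in edgeR, which is 0.255% (the background share). Of the 3 members tested, 0 passed. None of the 3 had an unadjusted p under 0.05, where 13.5% of all genes did, and the CPM values of the groups overlapped in all 3, whereas they did not overlap in 20.5% of all genes. DESeq2 called 0 members and 2.88% of the genes it gave an adjusted p. It gave an adjusted p to SOX9 and AMH but not to ESR1, so ESR1 could not be called there. With 3 tested members, a count of 0 is close to these shares and says little by itself. Exact two-sided permutation tests on log2 CPM gave p = 1 for SOX9, 0.3 for AMH and 0.3 for ESR1, where the smallest p that 3 libraries against 3 allow is 0.1.

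**Figure D3:**
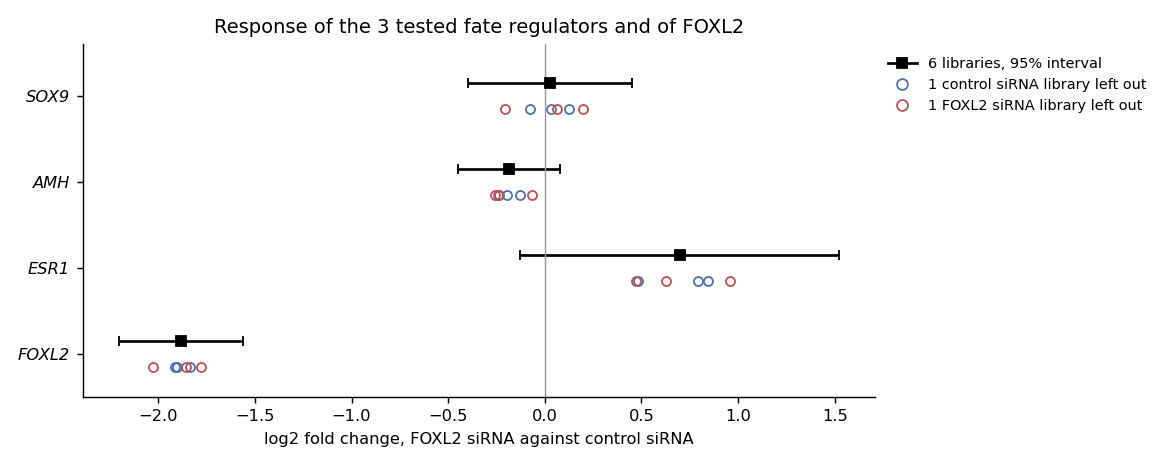
Log2 fold change of SOX9, AMH, ESR1 and FOXL2 between FOXL2 siRNA and control siRNA, with squares and bars for the edgeR value on 6 libraries and its 95% interval, and open circles for the value with 1 library left out. The intervals of SOX9 (-0.40 to 0.45), AMH (-0.45 to 0.08) and ESR1 (-0.13 to 1.52) cover 0, and that of FOXL2 (-2.20 to -1.56) lies below it.

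The pathways around the members were read from lists of genes. These held 153 genes beside the members and FOXL2, of which 102 were tested and 23 were at 0 in every library. Of the 102, 0 were called by edgeR (background 0.255%, as above), and 17 had an unadjusted p under 0.05, that is 16.7% against 13.5% of all genes. Their median log2 fold change was -0.02, against 0.01 over all genes tested.

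In the list of ovarian fate genes, 17 of 24 were tested and 1 was called, FOXL2 itself. The most abundant were CTNNB1, which encodes β-catenin and was at 203 and 186 TPM (control and FOXL2 siRNA means, as in the pairs of TPM values that follow), with a log2 fold change of -0.02 (adjusted p = 0.924, edgeR), and GJA1, a gap junction protein, at 133 and 149 TPM with 0.25 (adjusted p = 0.519, edgeR). FSHR, the receptor for follicle-stimulating hormone, was at 0 in every library. The list's median log2 fold change was -0.03.

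In the list of testis fate genes, 15 of 30 were tested and 0 were called, with a median log2 fold change of 0.04. NR5A1 (SF1), which activates AMH and steroidogenic genes and acts with SOX9, was at 35.3, 34.7 and 34.6 TPM under control siRNA and 39.2, 36.9 and 39.0 TPM under FOXL2 siRNA. Its TPM groups did not overlap, whereas its CPM groups did, and the log2 fold change in counts was 0.04 (SE 0.0714, adjusted p = 0.838, edgeR). PDGFA, a growth factor, was at 48.9 and 56.2 TPM with 0.23 (adjusted p = 0.324, edgeR). The largest difference in the list was that of CBX2, a Polycomb protein needed for testis development, with a log2 fold change of -0.47 (SE 0.171, adjusted p = 0.294, edgeR). SOX8 and PTGDS, which act beside or under SOX9 in Sertoli cells, were at 0 in every library, as were FGF9 and GATA1.

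In the WNT and R-spondin list, 28 of 38 genes were tested and 0 were called, with a median log2 fold change of -0.00. LGR4, a receptor for R-spondins, was at 34.8 and 42.0 TPM, with overlapping groups, while the ligands RSPO1 and RSPO4 were at 0 and RSPO2 and RSPO3 under 1 TPM. The most abundant were CTNNB1 and DKK3, at 139 and 148 TPM, the latter with 0.01 (adjusted p = 0.972, edgeR). NKD1 had the largest difference, a log2 fold change of -0.84 (SE 0.425, adjusted p = 0.416, edgeR), at a mean TPM of 0.0783. AXIN2, a target and inhibitor of β-catenin signalling, is named here after its values were seen. It was at 4.62, 5.07 and 3.68 TPM against 2.53, 2.72 and 3.42 TPM, with no overlap and a log2 fold change of -0.57 (SE 0.146, adjusted p = 0.160, edgeR). In this list the CPM groups did not overlap in 9 of the 28 tested genes, against 20.5% of all genes. Unadjusted p was under 0.05 in edgeR for 3 genes that were higher and 2 that were lower under FOXL2 siRNA.

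In the list around the oestrogen receptors, 16 of 22 genes were tested and 0 were called by edgeR, with a median of -0.03. The largest log2 fold change was that of ESR1. HSP90AA1, a chaperone of the receptors, was at 863 and 909 TPM with 0.05 (adjusted p = 0.806, edgeR), and CCND1, a cyclin, at 486 and 554 TPM with 0.26 (adjusted p = 0.310, edgeR). PGR, a target of ESR1 in many tissues, was at 2.75 and 2.52 TPM with a log2 fold change in counts of 0.16 (adjusted p = 0.514, edgeR). The coactivator NCOA2, named here after its values were seen, was at 9.88, 9.79 and 9.02 TPM against 6.60, 5.28 and 5.20. Its groups did not overlap, and its log2 fold change was -0.46 in both tools (adjusted p = 0.00964 in DESeq2 and 0.108 in edgeR). Once the effective lengths entered as offsets, it was -0.76 in both tools and passed in both (adjusted p = 0.0392 in edgeR).

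Among partners of WT1, GATA4 and NR5A1, 14 of 21 genes were tested and 0 were called (median -0.01). CITED2, a cofactor of WT1, was at 152 and 150 TPM (0.05, adjusted p = 0.772, edgeR) and WTAP, a WT1-associated protein of the RNA methylation complex, at 50.5 and 50.7 TPM (-0.07, adjusted p = 0.718, edgeR). GATA6, the closest relative of GATA4 in the gonad, was at 3.22, 3.56 and 3.41 TPM against 3.27, 3.44 and 4.45 TPM, with a log2 fold change of 0.08 (adjusted p = 0.840, edgeR). GATA6 was thus present where GATA4 had a single count in all.

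In the AMH receptor pathway, 11 of 12 genes were tested and 0 were called (median -0.05). AMHR2, the type II receptor specific to AMH, was at trace level, listed at 0 in 4 of 6 libraries and at 0.03 and 0.05 TPM in the others. The type I receptors ACVR1 (20.2 to 22.8 TPM) and BMPR1A (11.3 to 14.9 TPM) and the effector SMAD5 (35.4 to 45.6 TPM) were expressed. The targets ID3 and ID1 were the most abundant, at 277 and 263 TPM (-0.10, adjusted p = 0.810, edgeR) and at 79.7 and 81.4 TPM (0.02, adjusted p = 0.959, edgeR). BMPR1B had the largest difference, a log2 fold change of -0.30 (adjusted p = 0.425, edgeR).

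Of 24 paralogs of the members, 9 were tested and 0 were called (median -0.02). SOX12 was the most abundant SOX paralog, at 6.97 and 5.94 TPM (-0.26, adjusted p = 0.396, edgeR), so SOX9 had the highest mean TPM of the SOX genes listed, with a range over the libraries that overlapped that of SOX12. EGR1, which shares the type of zinc finger found in WT1, was at 4.99 and 4.49 TPM (-0.18, adjusted p = 0.588, edgeR), and EGR2 had a log2 fold change of 0.27 (adjusted p = 0.822, edgeR). Of the 6 DMRT paralogs listed, none reached 0.1 TPM in the mean over the 6 libraries, which held for DMRT1 too. FOXL2NB, the neighbour of FOXL2 in the opposite direction, was at 8.97 and 8.04 TPM, with no overlap and a log2 fold change of -0.16 (adjusted p = 0.471, edgeR).

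The label of a granulosa cell line was set against markers. Of 13 granulosa cell markers, 7 had a mean of at least 1 TPM, led by FST (follistatin), at 72.1 and 66.7 TPM, and NR5A1. FSHR was at 0 in every library, and CYP19A1 (aromatase), INHA, AMHR2, GATA4 and NR5A2 were under 1 TPM. Of those above, HSD17B1 had a mean of only 1.08 TPM. NR5A1 is also in the list of testis fate genes, and STAR also in that of Leydig and theca cell markers. The granulosa list includes FOXL2 itself, at 5.28 to 5.72 TPM under control siRNA and 1.27 to 1.90 TPM under FOXL2 siRNA. With it, the list summed to 185 to 189 TPM in control libraries and 166 to 181 TPM in FOXL2 siRNA libraries. Apart from FOXL2, 0 of its 7 other tested genes were called.

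Of 14 Sertoli cell markers, 5 had a mean of at least 1 TPM, with AMH and SOX9 the most abundant, and SOX8, PTGDS and GATA1 were at 0 in every library. AMH, which granulosa cells also secrete, was at 19.2 to 31.9 TPM and made up the largest part of the list's sum. The Sertoli list summed to between 41.0 and 42.7 TPM in the control libraries and to between 32.2 and 46.1 TPM in the FOXL2 siRNA libraries, so the FOXL2 siRNA libraries lay on both sides of the control range. None of its 5 tested genes was called. GDNF, a Sertoli growth factor, had the largest difference in the list, a log2 fold change of -0.40 (SE 0.221, adjusted p = 0.466, edgeR).

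**Figure D4:**
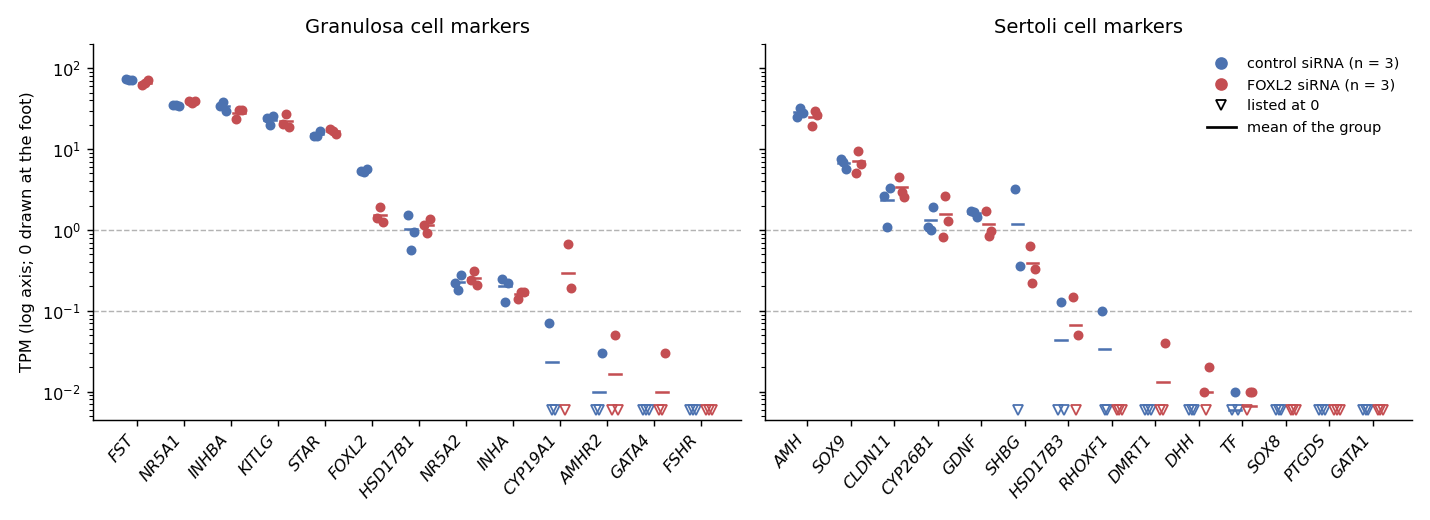
TPM of the granulosa and Sertoli cell markers by library on a log axis, drawn as in the plot of the members. FOXL2 is the only tested marker of these lists whose CPM ranges do not overlap between the groups, and SOX8, PTGDS, GATA1 and FSHR are listed at 0 in all 6 libraries.

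The gene whose log2 CPM pattern over the 6 libraries was most like that of SOX9, among 13757 genes with a mean of at least 1 TPM, was MAST4 (Pearson r = 0.994). For AMH it was DBF4B (Pearson r = 0.994). These are descriptions over 6 libraries that share the 2 groups, and 183 and 167 genes had an r of at least 0.9 with SOX9 and AMH. MAST4 lay between 12.5 and 14.5 CPM with a log2 fold change of 0.00 (adjusted p = 0.992, edgeR), and DBF4B between 27.4 and 36.9 CPM with -0.14 (adjusted p = 0.557, edgeR).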

How the data were processed

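The 6 libraries of KGN cells were grouped by siRNA, and replicate numbers are those of the labels. According to the methods and the submitters' processing notes, the authors aligned single 75-base reads of stranded libraries with STAR 2.7.6a, checked them with Picard 2.8.1 and estimated expression with RSEM 1.3.1. The deposited tables hold expected counts, which are not normalized, and TPM, scaled by the authors' run of RSEM to library and transcript length. FPKM, made by the authors in the same run, was not used. The notes name the mouse build GRCm38, whereas the identifiers are human, and no annotation release is given in the sources used here. Coordinates are from GENCODE v29 on GRCh38, whose transcripts differ from the files', for example in length for SOX9 and WNT4 and in number for WT1. Promoter windows are from RefSeq, GRCh38.p14. A gene name table gave symbols for 60401 identifiers.

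Expected counts were rounded, filtered with filterByExpr, normalized by TMM and compared with edgeR 4.0.16 (quasi-likelihood test, R 4.3.3, adjusted p under 0.05). The test was checked on simulated data. CPM values are TMM-scaled, errors are SDs, and limits use 3 counts and cover counting error only. Alternatives used DESeq2 1.42.0, limma 3.58.1, other filters and scalings, length offsets, a replicate block and each library left out. The members, gene lists and tests were chosen with earlier results of these data known. The genes named were FOXL2, the members and, in each list, every gene called, the 2 with the highest mean TPM and the 1 tested with the largest fold change, and for SOX9 and AMH the most similar gene. A listed gene's values are not reported here. All other genes in the text, among them LGR4, PGR, GATA6, ACVR1, BMPR1A, SMAD5, the neighbours of members and the genes at or near 0, were chosen after their values were seen.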

Additional observations from a re-analysis of the deposited data

How the results depend on the processing

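No fate regulator was called in any of the 17 alternatives. For ESR1 some of these could not give a call. It had no adjusted p in DESeq2, with or without length offsets. It was not fitted by limma on TPM or with a mean of at least 50 counts. The log2 fold change of AMH stayed negative in all 17 (-0.26 to -0.07) and that of ESR1 positive in the 14 that gave one (0.47 to 0.96), and FOXL2 was called in all 17 (-2.03 to -1.36). SOX9 changed sign with limma-voom (-0.0043) and without control siRNA replicate 3 (-0.07) or FOXL2 siRNA replicate 2 (-0.21), and its values with 1 library left out ran from -0.21 to 0.20. The 40 calls over all genes became 348 with DESeq2 (344 once effective lengths were offsets), 13 with limma on log2(TPM + 1) and 13 on log2(TPM + 0.1), 70 with no filter and 64 with a mean of at least 50 counts. They ran from 2 to 579 with 1 library left out, namely 2, 3 and 2 without control siRNA replicates 1, 2 and 3, and 105, 579 and 9 without FOXL2 siRNA replicates 1, 2 and 3. Companion genes called rose from 0 to 2 with DESeq2, of 87 that it gave an adjusted p, where 2.88% of all genes were called. With 1 library left out they ran from 0 to 5. The 5 were called without FOXL2 siRNA replicate 2, the fit that called 579 of all genes. Those called without FOXL2 siRNA replicate 2 included KITLG, NR2F2, ESRRA and NCOA2. The cause was not tested.

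The replicate numbers gave no sign of pairing, since deviations of same-numbered libraries correlated at -0.0233, 0.0659 and 0.0421. With the replicate block, edgeR called 11 genes, among them 0 fate regulators and 0 companion genes, and log2 fold changes were 0.01 for SOX9, -0.19 for AMH, 0.70 for ESR1 and -1.88 for FOXL2. The same 2 members counted as expressed with a mean CPM of 1 or a mean TPM of 0.5 as the limit. The 3 undetected members could not be compared between groups, and for ESR1 the 9 to 28 counts per library limit the precision.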

Other observations

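Markers of other cell types were measured as a further description of the line. Of 7 epithelial markers, 4 had a mean of at least 1 TPM. KRT18 lay between 847 and 1038 TPM and KRT8 between 77.7 and 90.5 TPM, with log2 fold changes of 0.05 and -0.04 (adjusted p = 0.838 and 0.874, edgeR), and KRT19 was at 1.58 to 2.34 TPM, with -0.24 (adjusted p = 0.649, edgeR). EPCAM and CDH1 were under 1 TPM. Of 6 stromal and smooth muscle markers, COL1A1, a fibrillar collagen chain, lay between 4743 and 5634 TPM with a log2 fold change of -0.02 (adjusted p = 0.951, edgeR). ACTA2, smooth muscle actin, was at 208, 207 and 266 TPM under control siRNA and 351, 291 and 280 TPM under FOXL2 siRNA. Its groups did not overlap, and its log2 fold change was 0.44 in edgeR (adjusted p = 0.233) and 0.43 in DESeq2 (adjusted p = 0.0346).

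Of 6 Leydig and theca cell markers, 1 had a mean of at least 1 TPM, STAR, the cholesterol carrier of steroidogenesis, at 14.4 to 17.6 TPM with a log2 fold change of 0.03 (adjusted p = 0.911, edgeR), and CYP11A1 was at 0.10 to 0.39 TPM. Of 6 germ cell markers, KIT was at 1.00 to 1.54 TPM with -0.05 (adjusted p = 0.942, edgeR), and NANOS3 at 0 to 0.58 TPM. Of 5 immune cell markers, CD68 was at 52.2 to 85.2 TPM with -0.29 (adjusted p = 0.233, edgeR), PTPRC at 0.40 to 1.01 TPM with -0.18 (adjusted p = 0.771, edgeR), and CD3E, MS4A1 and LYZ were at 0 in every library. The immune list, nearly all of it CD68, summed to 72.9 to 86.0 TPM under control siRNA and 52.8 to 70.2 TPM under FOXL2 siRNA, without overlap.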
